A study of Rattus norvegicus with 16 samples.

Results

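The 10 genes described here encode the machinery of necroptosis, pyroptosis and inflammatory caspase signaling: Mlkl, Ripk1, Ripk3, Casp1, Casp4, Casp8, Casp12, Gsdmd, Nlrp3 and Pycard. They were chosen by name from the 26689 genes listed for these rat mesenchymal stromal cells (MSCs). All 10 were found in the gene table and all 10 passed the filter on low counts. MSCs of 4 rats were each cultured for 24 h in 4 media, so that every condition held 4 libraries and the same 4 animals. M1CM was the supernatant of inflammatory (M1) macrophages. Pol1 was the macrophage polarization medium itself, D10 with 100 ng/ml lipopolysaccharide (LPS) and 20 ng/ml interferon-gamma (IFNγ) by the labels. M0CM was the supernatant of unpolarized macrophages, and D10 was the standard DMEM growth medium of the MSCs, with 10% fetal bovine serum and 0.1% gentamycin. All MSCs came from adult bone marrow of female wild type Sprague-Dawley rats and were sorted as CD29+/CD45- cells.

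The design limits what each medium stands for. The methods place the macrophages in an RPMI-based medium and describe the polarizing mixture in the same base with macrophage colony stimulating factor, while the labels place Pol1 in D10. Comparisons of M1CM and M0CM with D10 therefore also compared base media, and for Pol1 the sources disagree. They also differ on the dose of IFNγ, which is given here as the labels have it. M1CM was the medium in which macrophages had been held with LPS and IFNγ, so what remained of both agents was part of it. The RNA came from whole cultures, in which fewer cells of a type and less RNA per cell cannot be told apart, and neither cleavage nor phosphorylation of any protein was measured.

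Necroptosis and pyroptosis are forms of programmed cell death that break the plasma membrane and release cell contents. In necroptosis the kinase RIPK1 recruits the kinase RIPK3, which phosphorylates MLKL, and MLKL then permeabilizes the membrane, while caspase-8 restrains the route by cleaving both kinases. In pyroptosis a sensor such as NLRP3 engages the adaptor ASC, encoded by Pycard, which brings in caspase-1, and caspase-1 or caspase-4 cuts gasdermin D (Gsdmd) to free its pore-forming end. Caspase-1 also matures interleukin-1β, and in macrophages Nlrp3 transcription is raised by ligands of toll-like receptors in a step known as priming.

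Promoters were read for 7 of the 10 genes from RefSeq (GRCr8), and Casp4, Casp8 and Gsdmd had no entry. In the gene table Casp1, Casp4 and Casp12 followed each other on chromosome 8, whereas Mlkl lay on chromosome 19, Ripk1 on 17, Ripk3 on 15, Casp8 on 9, Gsdmd on 7, Nlrp3 on 10 and Pycard on 1. The 250 bases before the gene start are shown for Casp1 and Casp12, neighbors that were both higher in Pol1 and M1CM, for Mlkl, which was higher in both media, and for Nlrp3, which was higher in M1CM and not called in Pol1. Each is written on the strand of the gene, and capitals mark the letters matched by 3 motifs searched on both strands. The Casp1 stretch is chr8:10872580-10872829 (plus strand), that of Casp12 is chr8:10926938-10927187 (plus), that of Mlkl is chr19:56213859-56214108 (minus) and that of Nlrp3 is chr10:44827848-44828097 (plus).
Casp1: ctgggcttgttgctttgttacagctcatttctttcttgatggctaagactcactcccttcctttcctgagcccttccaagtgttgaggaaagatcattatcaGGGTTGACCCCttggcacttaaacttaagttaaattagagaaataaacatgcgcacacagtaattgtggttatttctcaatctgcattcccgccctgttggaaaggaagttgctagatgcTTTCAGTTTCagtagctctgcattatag
Casp12: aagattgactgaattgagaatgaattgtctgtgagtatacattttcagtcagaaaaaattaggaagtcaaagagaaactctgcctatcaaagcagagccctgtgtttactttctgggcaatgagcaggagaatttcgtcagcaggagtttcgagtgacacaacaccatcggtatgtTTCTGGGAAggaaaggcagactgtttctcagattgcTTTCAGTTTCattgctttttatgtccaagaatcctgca
Mlkl: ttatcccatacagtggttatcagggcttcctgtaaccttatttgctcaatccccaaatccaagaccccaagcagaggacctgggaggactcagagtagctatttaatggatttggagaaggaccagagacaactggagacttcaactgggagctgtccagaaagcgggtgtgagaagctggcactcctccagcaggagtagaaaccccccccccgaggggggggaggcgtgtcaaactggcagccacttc
Nlrp3: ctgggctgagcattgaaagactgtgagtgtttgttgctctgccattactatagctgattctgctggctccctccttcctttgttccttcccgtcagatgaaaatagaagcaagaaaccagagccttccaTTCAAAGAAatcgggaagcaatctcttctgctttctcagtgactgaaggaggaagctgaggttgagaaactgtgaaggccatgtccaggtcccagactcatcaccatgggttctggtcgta

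The motif GAAANNGAAA, a pair of core repeats of an interferon-stimulated response element, was matched in Casp1 and Casp12 by the same letters, TTTCAGTTTC, which started 28 bases before the Casp1 start and 38 bases before the Casp12 start. It occurred in 3.41% of the 33469 RefSeq promoters of this length and in none of the other 5 members with an entry. TTCNNNGAA, the core of a gamma-activated sequence and its own reverse complement, was matched by TTCTGGGAA in Casp12 and by TTCAAAGAA in Nlrp3, with 7.67% of promoters holding it. GGGNNNNNCC, a loose NF-kB form, was matched by 2 overlapping stretches in Casp1 and by 1 in Ripk3, and 42.3% of promoters held it. A match is a description of letters and not a bound site.

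Library totals ran between 23291125 and 31992709 counts, and 13556 genes had at least 10 counts in at least 4 libraries. Levels below are CPM (counts per 1e+06 counts) after scaling by edgeR's trimmed mean method and are given for rats 2, 3, 4 and 8 in that order. Fold changes, confidence intervals and Benjamini-Hochberg adjusted p-values are from edgeR's quasi-likelihood test over all genes, called below 0.05. The summed level of 8 mesenchymal markers was 46158 to 101405 CPM in M1CM, 77018 to 118000 CPM in Pol1, 85389 to 123843 CPM in M0CM and 93557 to 142314 CPM in D10. Most of that sum was collagen, with Col1a1 at 28661 to 69229 CPM and Col1a2 at 12636 to 27690 CPM in M1CM. Eng and Nt5e were the lowest of the 8 and varied between libraries. Eng measured 6.68 to 94.8 CPM in M1CM and 8.41 to 85.9 CPM in D10, and Nt5e 11.4 to 55.8 CPM and 14.9 to 36.2 CPM. Against D10, M1CM had less Col1a1, Col1a2 and Itgb1 and more Pdgfra (adjusted p below 0.05). Mitochondrial genes took 1.17 to 2.25% of counts in M1CM and 1.02 to 1.66% in D10.

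The comparison of M1CM with D10 asks how MSCs in the medium of inflammatory macrophages differed from those in growth medium. All 10 genes were higher in M1CM. The background was 23.3% of all tested genes called higher and 44.4% called in either direction. The libraries did not overlap for 9 of the 10, against 19.1% of tested genes that stood apart in this direction, and the exception was Ripk3. The median log2 fold change was 1.6 over the members and -0.01 over all genes tested. In Pol1 compared with D10, 9 of the 10 were higher, with a background of 10.6% higher and 18.6% in either direction, and Nlrp3 was the one not called and the one whose libraries overlapped (12.9% of tested genes stood apart in this direction). In M0CM compared with D10 none was called by edgeR, with a background of 0.125% higher and 0.14% in either direction. In that comparison 0 of the 10 had an unadjusted p below 0.05, against 650 of all 13556 tested genes. DESeq2, which called 0.443% of tested genes in either direction, called 0 of the 10. With a term for the rat, edgeR called 1 of the 10, Nlrp3 (adjusted p = 0.0078), with a background of 0.789% higher.

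**Figure D1:**
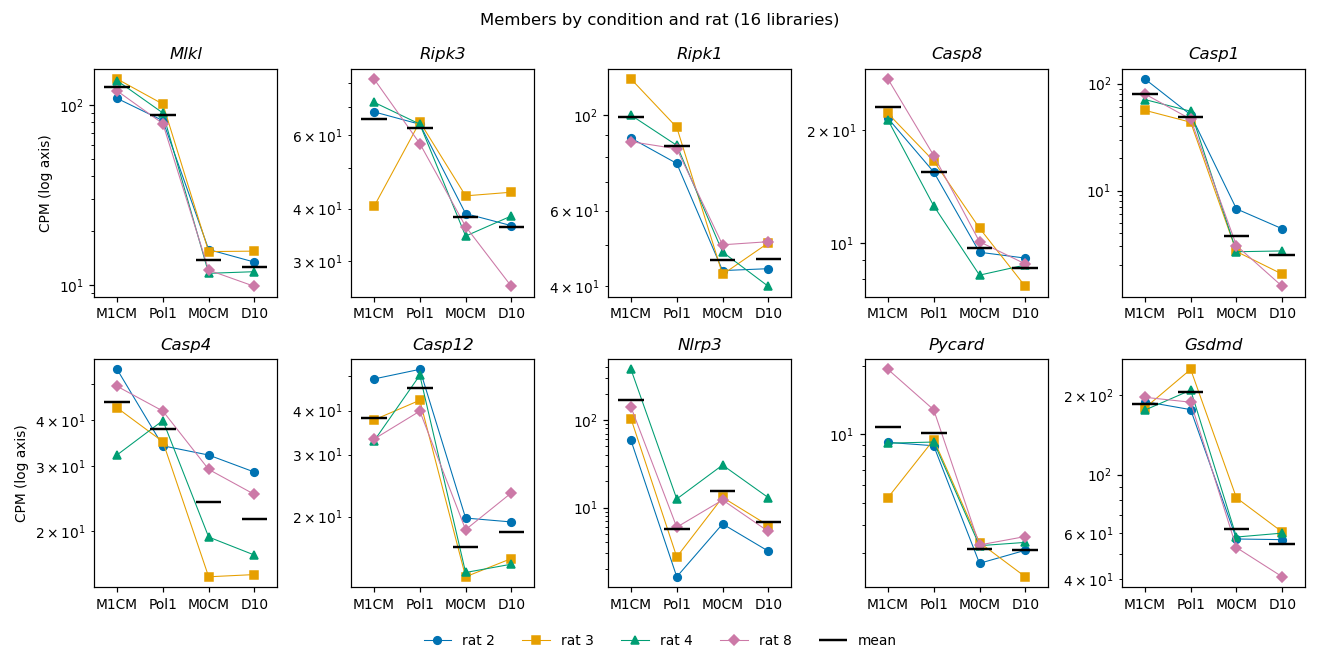
Level of each gene in CPM (log axis, scale set per panel) in M1CM, Pol1, M0CM and D10, with 1 point per library, lines joining the libraries of a rat and black bars for the mean of 4 rats. Mlkl and Casp1 separate into a high pair (M1CM, Pol1) and a low pair (M0CM, D10), while Nlrp3 is high in M1CM alone and keeps the order of rats 2 and 4 at its ends in every condition.

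Mlkl, the executioner of necroptosis, had the largest rise of the necroptosis genes in M1CM and Pol1. It measured 108, 139, 136 and 119 CPM in M1CM and 81.6, 101, 90.0 and 78.5 CPM in Pol1. It measured 15.7, 15.3, 11.6 and 12.1 CPM in M0CM and 13.4, 15.4, 11.8 and 9.81 CPM in D10. The 8 libraries of M1CM and Pol1 were all above the 8 of M0CM and D10, and the lowest M1CM library was above the highest Pol1 library. Mlkl was 9.98-fold higher in M1CM than in D10 (95% interval 7.91 to 12.6, adjusted p = 6.6e-10) and 6.96-fold higher in Pol1 than in D10 (5.55 to 8.74, adjusted p = 5.0e-09).

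Ripk3, the kinase that phosphorylates MLKL, was called higher in both inflammatory media. Its levels were 68.1, 40.5, 71.8 and 81.7 CPM in M1CM and 63.6, 64.5, 63.7 and 57.2 CPM in Pol1. They were 38.9, 42.9, 34.4 and 36.2 CPM in M0CM and 36.4, 43.8, 38.4 and 26.1 CPM in D10. Rat 3 stood apart, since its M1CM library was the lowest of that condition and below its own D10 library, whereas the other 3 rats were higher in M1CM. Ripk3 was 1.81-fold higher in M1CM than in D10 (1.38 to 2.38, adjusted p = 0.0016) and 1.72-fold higher in Pol1 than in D10 (1.31 to 2.26, adjusted p = 0.0080). The Pol1 call was lost without rat 2 (adjusted p = 0.058) or rat 4 (adjusted p = 0.063). Those fits called 15.1% and 10.3% of all tested genes in either direction, against 18.6% with all rats.

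Ripk1, the kinase that opens the route and also serves survival signaling from tumor necrosis factor receptors, measured 88.6, 122, 100.2 and 86.9 CPM in M1CM and 77.3, 93.8, 85.2 and 83.6 CPM in Pol1. Its M0CM libraries lay between 42.6 and 49.9 CPM and its D10 libraries between 39.9 and 50.8 CPM. Both inflammatory media therefore stood apart from both control media, with a 2.15-fold difference for M1CM against D10 (1.81 to 2.55, adjusted p = 2.6e-06) and a 1.84-fold difference for Pol1 against D10 (1.55 to 2.18, adjusted p = 7.6e-05).

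Casp8, the protease that restrains necroptosis and starts death receptor apoptosis, was higher in Pol1 than in M0CM and higher again in M1CM. It measured 21.5, 22.2, 21.3 and 27.4 CPM in M1CM and 15.5, 16.6, 12.6 and 17.1 CPM in Pol1. It measured 9.45, 11, 8.21 and 10.1 CPM in M0CM and 9.11, 7.66, 8.73 and 8.79 CPM in D10. M1CM did not overlap Pol1, Pol1 did not overlap M0CM, and M0CM overlapped D10. Casp8 was 2.69-fold higher in M1CM than in D10 (2.23 to 3.25, adjusted p = 4.5e-07) and 1.80-fold higher in Pol1 than in D10 (1.49 to 2.17, adjusted p = 0.00024).

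Casp1, the inflammasome caspase, had the largest fold changes of the caspases. It measured 111, 56.3, 71.0 and 80.0 CPM in M1CM and 51.1, 43.5, 55.2 and 46.5 CPM in Pol1. It measured 6.74, 2.69, 2.68 and 3.06 CPM in M0CM and 4.39, 1.65, 2.72 and 1.27 CPM in D10. The lowest M1CM library was above the highest Pol1 library, and rat 2 was the highest in M1CM, M0CM and D10 but not in Pol1. Casp1 was 31.9-fold higher in M1CM than in D10 (17.5 to 58.2, adjusted p = 1.8e-07) and 19.7-fold higher in Pol1 than in D10 (11 to 35.3, adjusted p = 1.6e-06). The D10 level rested on 276 counts over 4 libraries, against 8302 in M1CM.

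Casp4, the rat counterpart of the mouse caspase-11 that binds cytosolic LPS, measured 54.9, 43.2, 32.2 and 49.4 CPM in M1CM and 34.1, 35.0, 39.9 and 42.3 CPM in Pol1. It measured 32.2, 15.1, 19.3 and 29.4 CPM in M0CM and 28.9, 15.3, 17.3 and 25.2 CPM in D10. Rats 2 and 8 were above rats 3 and 4 in both control media, and in Pol1 rat 2 was the lowest. Casp4 was 2.07-fold higher in M1CM than in D10 (1.43 to 3.00, adjusted p = 0.0033). It was 1.75-fold higher in Pol1 than in D10 (1.21 to 2.52, adjusted p = 0.035), a call lost without rat 3 (adjusted p = 0.11), rat 4 (adjusted p = 0.17) or rat 8 (adjusted p = 0.12). Those fits called 12.3%, 10.3% and 11.5% of all tested genes in either direction, against 18.6% with all rats.

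Casp12, the remaining caspase of the chromosome 8 group, was highest in Pol1 by its mean. It measured 49.2, 37.6, 32.8 and 33.2 CPM in M1CM and 52.4, 42.8, 50.4 and 39.9 CPM in Pol1. It measured 19.8, 13.5, 13.9 and 18.4 CPM in M0CM and 19.3, 15.2, 14.7 and 23.4 CPM in D10. All 4 rats were lower in M1CM than in Pol1, but the libraries overlapped and the difference was not called (log2 fold change -0.28, adjusted p = 0.29). Casp12 was 2.11-fold higher in M1CM than in D10 (1.61 to 2.76, adjusted p = 0.00024) and 2.56-fold higher in Pol1 than in D10 (1.95 to 3.36, adjusted p = 9.9e-05).

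Nlrp3, the sensor, was high in M1CM and low in Pol1. It measured 58.5, 103, 378 and 140.1 CPM in M1CM and 1.62, 2.73, 12.5 and 5.97 CPM in Pol1. It measured 6.50, 13.1, 30.5 and 12.2 CPM in M0CM and 3.18, 6.23, 13 and 5.33 CPM in D10. Rat 4 was the highest and rat 2 the lowest in all 4 conditions, with a span of 6.46-fold in M1CM, 7.73-fold in Pol1, 4.70-fold in M0CM and 4.08-fold in D10. Every M1CM library was nevertheless above every library of the other media. Nlrp3 was 24.4-fold higher in M1CM than in D10 (7.85 to 76.1, adjusted p = 0.00020), and the log2 fold change was 4.61 with all libraries and 3.86 without the M1CM library of rat 4. Within a rat, the M1CM to D10 ratio was 18.4, 16.6, 29.2 and 26.3.

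In Pol1, Nlrp3 was not called different from D10. The log2 fold change was -0.28 (95% interval -1.75 to 1.19, adjusted p = 0.83), and 1 of 4 rats was higher in Pol1. With a term for the rat it was -0.42 (unadjusted p below 0.05, adjusted p = 0.11), again not called. The M0CM to D10 ratio was 2.05, 2.10, 2.36 and 2.29 within the 4 rats, so that all were higher in M0CM although the libraries overlapped. Without a term for the rat the difference was not called (log2 fold change 1.16, interval -0.30 to 2.62, adjusted p = 1.0). With a term for the rat it was called (1.15, adjusted p = 0.0078), when 0.789% of tested genes were called higher. The same term called Nlrp3 lower in Pol1 than in M0CM (log2 fold change -1.56, adjusted p = 2.7e-05, background 13% lower), against -1.44 (adjusted p = 0.20) without it.

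Macrophage markers moved between the same media. Of 20 markers, 19 were in the table and 10 passed the filter, and their summed level was 18.2, 22.6, 41.4 and 23.7 CPM in M1CM, 10.9, 10.6, 13 and 9.20 CPM in Pol1, 24.0, 26.1, 20.5 and 22.6 CPM in M0CM and 10.9, 9.31, 8.17 and 6.51 CPM in D10. The M1CM library of rat 4, the highest for Nlrp3, was also the highest for this sum, but not without Cd14, which the list of inflammasome regulators also holds. Without Cd14 the sums were 9.92, 13.4, 8.77 and 6.28 CPM in M1CM, 3.44, 2.98, 2.63 and 2.98 CPM in Pol1, 15.6, 17.0, 13 and 16.3 CPM in M0CM and 4.97, 4.73, 3.16 and 3.24 CPM in D10. In M0CM rat 4 was the highest for Nlrp3 and the lowest for both sums. In Pol1 it was the highest for Nlrp3 and for the full sum, and the lowest without Cd14. In D10 it was the highest for Nlrp3 and the lowest for the sum without Cd14. Of the defining markers, Ptprc (CD45), Tyrobp and Adgre1 were at or near 0 and did not pass the filter. Over 4 libraries each, Ptprc had 12 counts in M1CM, 0 in Pol1, 37 in M0CM and 0 in D10. In the same order Tyrobp had 0, 0, 9 and 0, and Adgre1 had 10, 0, 25 and 0. The defining markers Csf1r and Spi1 passed the filter, with 86, 69, 178 and 40 counts for Csf1r and 64, 137, 213 and 136 for Spi1. Nlrp3 had 17862 counts in M1CM, 651 in Pol1, 1669 in M0CM and 824 in D10. M1CM against D10 called 4 of the 10 tested markers higher and 3 lower (all genes 23.3% higher, 44.4% in either direction). M1CM against Pol1 called 4 higher and 0 lower (13.8% and 25.1%), and M1CM against M0CM 2 higher and 4 lower (21.5% and 40.3%). In M0CM compared with D10, 1 was higher without a term for the rat (all genes 0.125% higher). With that term 5 were higher (all genes 0.789%), in the fit that also called Nlrp3. Markers of other leukocytes (7 in the table) summed to at most 0.157 CPM in any library, and those of endothelium (5 in the table) to 0.571 to 5.91 CPM in M1CM and 1.94 to 9.20 CPM in D10. The part of macrophage RNA in the Nlrp3 differences was not tested.

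Pycard, which encodes the ASC adaptor, was measured at low levels in M0CM and D10. It had 9.22, 5.27, 9.14 and 19.3 CPM in M1CM and 8.91, 9.48, 9.25 and 12.8 CPM in Pol1. It measured 2.71, 3.34, 3.24 and 3.26 CPM in M0CM and 3.09, 2.37, 3.35 and 3.55 CPM in D10. Both inflammatory media were above both control media in every library, and the M1CM spread was set by rats 3 and 8. Pycard was 3.47-fold higher in M1CM than in D10 (2.23 to 5.41, adjusted p = 0.00020) and 3.27-fold higher in Pol1 than in D10 (2.10 to 5.09, adjusted p = 0.00096).

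Gsdmd, the pore former of pyroptosis, measured 189.6, 179, 176 and 197 CPM in M1CM and 177, 251, 209.6 and 189 CPM in Pol1. It measured 56.9, 81.6, 57.9 and 52.8 CPM in M0CM and 56.6, 60.5, 59.9 and 40.9 CPM in D10. The 2 inflammatory media overlapped each other and both stood above every control library. Gsdmd was 3.40-fold higher in M1CM than in D10 (2.69 to 4.31, adjusted p = 5.0e-07) and 3.79-fold higher in Pol1 than in D10 (2.99 to 4.8, adjusted p = 5.2e-07).

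**Figure D2:**
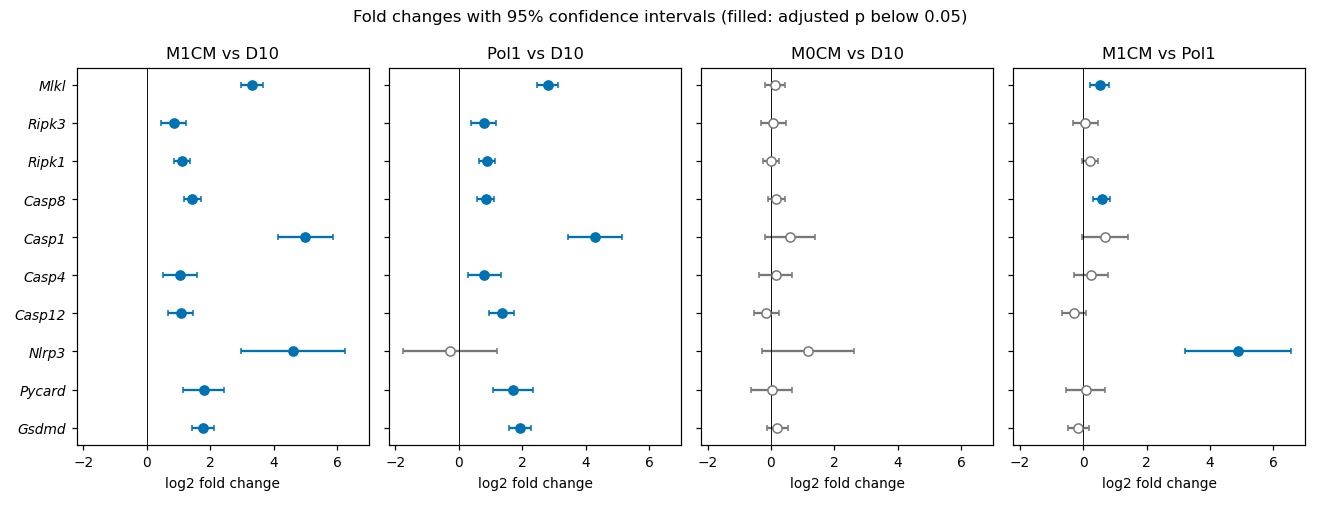
Log2 fold change of each gene with its 95% confidence interval in 4 comparisons (n = 4 libraries per condition), filled where edgeR's adjusted p is below 0.05. All 10 are filled for M1CM against D10, 9 for Pol1 against D10, none for M0CM against D10 and 3 for M1CM against Pol1, where Nlrp3 lies at 4.89.

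The comparison of M1CM with Pol1 asks how MSCs in the macrophage supernatant differed from those in the polarizing medium. The contents of the 2 media were not compared here. Mlkl, Casp8 and Nlrp3 were higher in M1CM, 3 of 10, with a background of 13.8% higher and 25.1% in either direction, and 0 were lower. Nlrp3 was 29.6-fold higher (9.35 to 93.8, adjusted p = 0.00040), and its ratio within a rat was 36.1, 37.9, 30.2 and 23.5. Without the M1CM library of rat 4 its log2 fold change was 4.14 instead of 4.89. Mlkl was 1.43-fold higher (1.16 to 1.77, adjusted p = 0.016) in 4 of 4 rats, a call lost without rat 4 (adjusted p = 0.10) or rat 8 (adjusted p = 0.054). Those fits called 12.6% and 15.3% of all tested genes in either direction. Casp8 was 1.5-fold higher (1.25 to 1.80, adjusted p = 0.0035), with within-rat ratios of 1.39, 1.34, 1.70 and 1.6.

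Casp1 was 1.62-fold higher in M1CM than in Pol1 (0.982 to 2.67, adjusted p = 0.15), in 4 of 4 rats and without overlap. It was called with a term for the rat (log2 fold change 0.64, adjusted p = 0.020), which then called 4 members with a background of 19.8% higher, and when these 2 conditions were fitted alone (adjusted p = 0.038). The libraries of 4 members did not overlap, Mlkl, Casp8, Casp1 and Nlrp3, against 13.2% of tested genes. For the remaining 6 the difference was not called, and the 95% interval of the log2 fold change ran from -0.02 to 0.47 for Ripk1, -0.32 to 0.46 for Ripk3, -0.28 to 0.78 for Casp4, -0.66 to 0.11 for Casp12, -0.49 to 0.17 for Gsdmd and -0.53 to 0.70 for Pycard.

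**Figure D3:**
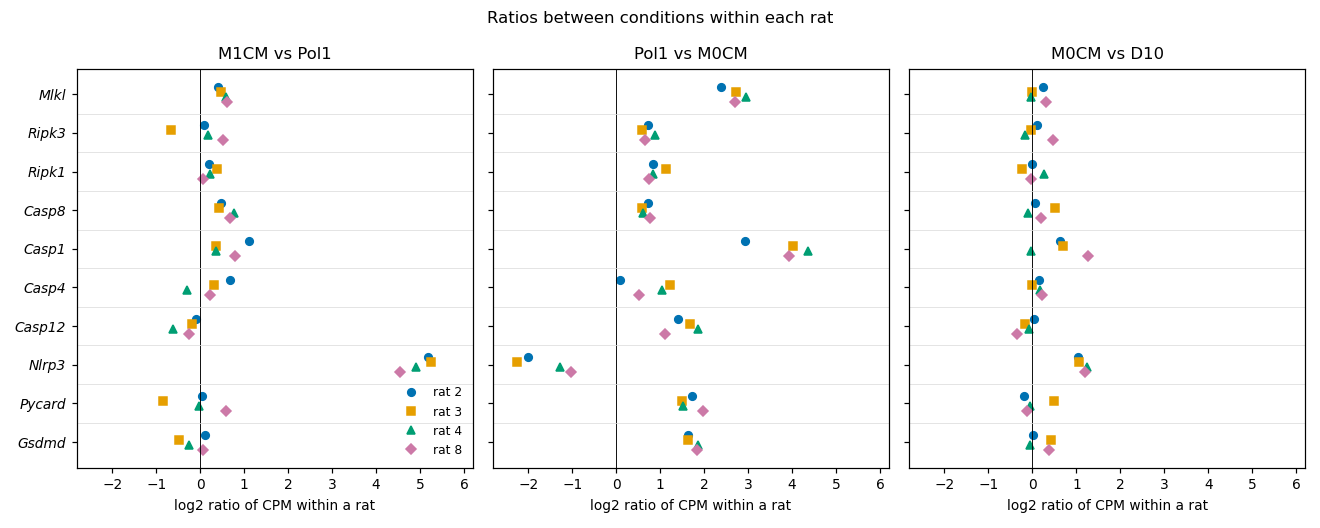
Log2 ratio of CPM between conditions within each rat (1 point per rat) for M1CM over Pol1, Pol1 over M0CM and M0CM over D10. Nlrp3 lies right of 0 in all 4 rats for M1CM over Pol1 and for M0CM over D10, where its ratios run from 2.05 to 2.36, and left of 0 in all 4 for Pol1 over M0CM.

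Set against M0CM, the medium of unpolarized macrophages, all 10 members were again higher in M1CM, with a background of 21.5% higher and 40.3% in either direction. The fold change was 9.20 for Mlkl, 21.0 for Casp1, 10.9 for Nlrp3 and 2.98 for Gsdmd, and Nlrp3's log2 fold change was 3.45 with all libraries and 2.69 without the M1CM library of rat 4. Ripk3, 1.72-fold higher (adjusted p = 0.0035), lost its call without rat 4 (adjusted p = 0.056), when 29.1% of all tested genes were called. In Pol1 compared with M0CM, 8 of 10 were higher, with a background of 8.38% higher and 14.1% in either direction. Casp4 was 1.58-fold higher in 4 of 4 rats and was called only with a term for the rat (adjusted p = 0.098 without it and 0.0053 with it, over a background of 13.4% higher). Ripk3, 1.63-fold higher (adjusted p = 0.018), lost its call without rat 2 (adjusted p = 0.10) or rat 4 (adjusted p = 0.16). Those fits called 10.3% and 6.74% of all tested genes in either direction. These comparisons share their libraries with those above and are not separate evidence.

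For levels between genes the deposited FPKM values, which scale counts by gene length and library total, were used. Gsdmd was the most abundant member per length in every condition, at 101 ± 5.10 FPKM in M1CM, 116 ± 19.5 in Pol1, 34.2 ± 6.81 in M0CM and 29.2 ± 4.64 in D10 (SD, n = 4). Its deposited FPKM differed by up to 6.26% from values recomputed from counts and length. Mlkl came next in M1CM (89.1 ± 13 FPKM) and Pol1 (63.6 ± 7.73), and had rank 6 in M0CM (9.72 ± 1.35) and D10 (8.75 ± 1.48). Mlkl and Gsdmd overlapped in M1CM, where their libraries ran from 72.4 to 99.8 and from 97.5 to 109 FPKM, and stood apart in the other 3 media.

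Casp1 had rank 3 in M1CM (60.8 ± 15.2 FPKM) and Pol1 (38.7 ± 4.28), rank 10 in M0CM (2.93 ± 1.48) and rank 9 in D10 (1.89 ± 1). Nlrp3 had rank 4 in M1CM, at 14.3 to 101 FPKM over its 4 libraries, and last in Pol1 (0.413 to 3.39 FPKM) and D10 (0.780 to 3.36 FPKM). Casp4 and Ripk3 came after Gsdmd in D10 (18.0 ± 5.20 and 17.7 ± 3.44 FPKM), and did not differ beyond their spread. Among the tested genes, the D10 libraries of Casp1 lay between percentiles 17.2 and 32.5 of FPKM and those of Gsdmd between 76.0 and 83.7, while the M1CM libraries of Casp1 lay between 86.7 and 92.9.

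**Figure D4:**
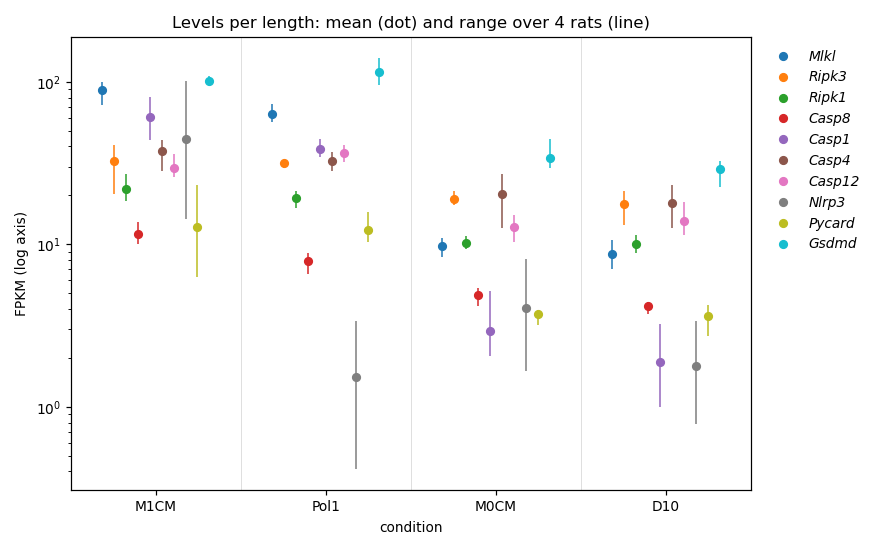
Level per length in FPKM (log axis) of each gene by condition, with the mean as a dot and the range over 4 rats as a line. Gsdmd is highest in every condition by its mean, and Nlrp3 spans 14.3 to 101 FPKM in M1CM against 0.413 to 3.39 FPKM in Pol1.

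The genes whose profile over the 16 libraries was most like each member's were found by the root mean square difference of centered log2 CPM. Among the 2 nearest were Ddx58 (0.19) and Mov10 (0.22) for Mlkl, Ythdc2 (0.12) and Wrn (0.13) for Ripk1, Slc2a8 (0.18) and Pnp (0.19) for Ripk3, and Insig2 (0.15) for Casp8. They were Tap2 (0.31) and Ifi44 (0.39) for Casp1, Ttc39c (0.26) and Naa25 (0.28) for Casp4, and Lap3 (0.20) and Rmnd1 (0.24) for Casp12. They also included Fbxw17 (0.36) for Pycard, Cndp2 (0.16) and Vamp5 (0.18) for Gsdmd, and Mmd (0.72) and Hr (0.82) for Nlrp3. Nlrp3 had no close partner among the members: the nearest was Casp8 at 1.86, and 1055 genes lay nearer. The neighbors on chromosome 8, Casp4 and Casp12, were 0.37 apart.

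Of 26 tested genes that act upstream of RIPK1, RIPK3 and caspase-8, M1CM against D10 gave 18 higher, 1 lower (Spata2) and 7 not called, with a median log2 fold change of 1.11 (all genes -0.01). Over all tested genes, 23.3% were called higher and 44.4% in either direction. Zbp1, a nucleic acid sensor that engages RIPK3, averaged 30.6 ± 10.3 CPM in M1CM and 0.025 ± 0.031 CPM in D10 (SD, n = 4), and 36.7 ± 7.93 CPM in Pol1. Tnfaip3, the ubiquitin editor A20 that restrains NF-kB, was 34.6-fold higher in M1CM than in D10 (adjusted p = 7.0e-08) and 13.8-fold higher in M1CM than in Pol1 (adjusted p = 5.9e-06). The death ligand Tnfsf10 measured 5.21 to 58.5 CPM in M1CM and 9.19 to 28.9 CPM in Pol1, with 0 counts in M0CM and D10. Tnf, the cytokine that activates this route, measured 4.59 to 11 CPM in M1CM, with 22 counts over 4 libraries in Pol1, 1 in M0CM and 0 in D10.

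In Pol1 compared with D10, 14 of these 26 were higher and 1 lower (all genes 10.6% higher, 18.6% in either direction), and in M1CM compared with Pol1, 12 were higher and 1 lower (all genes 13.8% higher, 25.1% in either direction). Spata2, the partner of the deubiquitinase CYLD, was the one lower in both. Birc3, the cIAP2 ligase that ubiquitinates RIPK1, was 6.35-fold higher in Pol1 than in D10 (adjusted p = 6.7e-08) and 5.31-fold higher in M1CM than in Pol1 (adjusted p = 1.1e-06). Tnip1, a partner of A20, averaged 1137 ± 246 CPM in M1CM, 281 ± 82.5 CPM in Pol1 and 103 ± 10.4 CPM in D10. The count for M1CM against Pol1 fell to 7 called without rat 4, when 12.6% of all tested genes were called.

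Of 20 tested inflammasome sensors and regulators, 15 rose and 1, the NLRP3 partner Nek7, fell in M1CM compared with D10 (Nek7 log2 fold change -0.56, adjusted p = 0.0051), against the same 23.3% and 44.4% of all tested genes. In Pol1 compared with D10, 11 were higher and 0 lower (all genes 10.6% higher). Gbp2 and Gbp5, interferon-induced GTPases of the guanylate binding family, were 406-fold and 335-fold higher in M1CM than in D10 and 330-fold and 152-fold higher in Pol1 than in D10, with adjusted p between 2.3e-09 and 1.1e-07. Nlrc5, an activator of MHC class I transcription, averaged 72.2 ± 16.4 CPM in M1CM, 84.5 CPM in Pol1 and 0.394 ± 0.349 CPM in D10. Aim2, the DNA sensor, measured 4.38 to 9.45 CPM in M1CM and 3.77 to 6.32 CPM in Pol1, with 4 counts over the M0CM libraries and 1 over those of D10.

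Between M1CM and Pol1, 7 of the 20 were called, all higher in M1CM, against 13.8% of all tested genes called higher and 25.1% in either direction. The count was 11 with a term for the rat (all genes 39.4% in either direction), 2 without rat 4 (12.6%) and 3 without rat 8 (15.3%). Tlr2, a receptor for bacterial lipoproteins, was 4.06-fold higher (adjusted p = 0.0073) and Gbp5 2.20-fold higher (adjusted p = 0.019). Naip5, a sensor of bacterial flagellin in mice, averaged 3.33 CPM in M1CM and 0.568 CPM in Pol1 (adjusted p = 0.0099). Nlrc4, its partner, measured 1.08 to 2.57 CPM in M1CM and had 0 counts in Pol1.

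Another list held genes of membrane rupture, cytokines that it releases and inhibitors of such cytokines. Of its 8 tested genes, M1CM against D10 called 5 higher and 0 lower (all genes 23.3% higher, 44.4% in either direction). Without rat 2, 3 of them were called (all genes 38.8%). Il1a, an alarmin, averaged 134 ± 83.7 CPM in M1CM, 0.748 CPM in Pol1 and 0.049 CPM in D10. Il1b, whose product is matured by caspase-1, measured 5.01 to 40.4 CPM in M1CM, with 3 counts over the 4 libraries of Pol1, 7 in M0CM and 3 in D10. Il18bp, the soluble inhibitor of interleukin-18, was 77.0-fold higher in M1CM than in D10 (adjusted p = 5.6e-10) and 71.7-fold higher in Pol1 than in D10 (adjusted p = 1.1e-09), while Il18 itself had 9, 1, 1 and 2 counts in M1CM, Pol1, M0CM and D10. Ninj1, which drives plasma membrane rupture downstream of gasdermin pores in mouse macrophages, was 5.30-fold higher in M1CM than in D10 (adjusted p = 5.2e-08), 1.81-fold higher in Pol1 than in D10 (adjusted p = 0.0022) and 2.93-fold higher in M1CM than in Pol1 (adjusted p = 2.1e-05). Il1a, Il1b and Ninj1 were among the 4 of 8 called higher in M1CM than in Pol1 (all genes 13.8%). That count was 2 without rat 2, 3 or 4, when 12.6% to 20.5% of all tested genes were called, and 7 in either direction with a term for the rat (all genes 39.4%).

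Of 11 tested apoptotic caspases and partners, 6 rose and 1, the nuclease inhibitor Dffa, fell in M1CM compared with D10 (all genes 23.3% higher, 44.4% in either direction). Bid, which caspase-8 cuts to reach mitochondria, was 5.21-fold higher (adjusted p = 1.6e-05) and Apaf1, the scaffold of the apoptosome, 1.72-fold (adjusted p = 0.0012). In Pol1 compared with D10, 3 were higher, among them Bid and Parp1, and 1, Casp2, lower (all genes 10.6% higher, 18.6% in either direction), and without rat 8 the number called was 2 (all genes 11.5%). Of the endosomal sorting complex (ESCRT) and related genes that repair membrane damage, M1CM against D10 called 4 of 13 higher and 2 lower, 3 in all without rat 2 or rat 4, with a median log2 fold change of 0.21. Those 6 of 13 stand beside the same 44.4% of all tested genes called in either direction. Those named by the largest change were Anxa1 (log2 fold change -0.54), Pdcd6 (0.51), Vps4b (0.35) and Chmp1a (0.31), all below the smallest fold change of a member in this comparison (0.86). In M0CM compared with D10, edgeR called 0 of the 78 tested genes of these 5 lists (all genes 0.14% in either direction). Of the 78, 4 had an unadjusted p below 0.05, as did 650 of all 13556 tested genes, and DESeq2 called 0 (all genes 0.443%). With a term for the rat edgeR called 1 of the 78, with a background of 0.789% higher and 1.1% in either direction. It was Il1r2, the decoy receptor for interleukin-1, named here because it was the one called. Il1r2 averaged 0.563 CPM in M0CM and 0.0939 CPM in D10 (adjusted p = 0.022). These low levels rested on 58 counts over 4 libraries in M0CM and 10 in D10.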

How the data were processed

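RNA of 16 MSC cultures (4 media, the same 4 rats) was sequenced from NEBNext Ultra libraries. The submitters' processing notes name TopHat2 2.0.12, Bowtie2 2.2.3, HTSeq 0.6.1 and DESeq 1.18.0, and the methods name the Rnor 6.0 genome. The strand setting of the counting was not given in the sources used here, and no listed gene overlapped a member. The deposited read counts per gene were made by the authors with HTSeq and are not normalized. The authors also deposited FPKM values, which scale each count by the length of the gene and the total of its library; 1796 of 26689 genes differed by over 1% from recomputed values. The authors' test columns (p-values and calls) and condition means were not used.

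Counts were tested with edgeR 4.0.16 (R 4.3.3), using trimmed mean scaling, a minimum of 10 counts in 4 or more libraries, 1 model of condition over all 16 libraries, the quasi-likelihood F-test, Benjamini-Hochberg adjustment and no fold minimum. The scripts were tested on simulated data. Alternatives were library totals, DESeq2 1.42.0, no count filter, a term for the rat, the 2 compared conditions alone and leaving out each rat, and, added after seeing the data, leaving out each M1CM library and recounting the pathway lists. The rat numbers come from the labels and mark the same animal: deviations from condition means correlated at 0.33 to 0.728 within a rat (24 pairs) and at -0.519 to 0.225 between rats (72 pairs).

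The members, the 5 pathway lists and the marker lists were chosen with earlier results of these data known. The text names all members, at most 4 called genes with the largest change per pathway list and comparison among those with a mean of at least 1 CPM, genes that stand alone in a direction, and the 2 genes of most similar profile per member. A few genes that this rule names are not reported here. Promoters are the 250 bases before the gene start in RefSeq's GRCr8, matched by symbol.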

Additional observations from a re-analysis of the deposited data

Results flagged for a closer look

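In 5 of the 40 groups of 4 libraries, 1 library stood apart from the other 3 by Dixon's criterion, which chance meets in about 1 in 20 groups. The lowest Ripk3 library in Pol1 had 57.2 CPM (rat 8). The highest Casp1 library in M0CM had 6.74 CPM (rat 2). The highest Casp8 library in M1CM had 27.4 CPM (rat 8). The highest Pycard library in Pol1 had 12.8 CPM (rat 8), and the lowest Pycard library in M0CM had 2.71 CPM (rat 2).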

How the results depend on the processing

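Of 660 recomputed log2 fold changes of the members, 637 kept their direction and their side of the threshold. Values that changed sign were never called: in M0CM against D10 Ripk1 (-0.01; 0.025 with library totals, and -0.093 to 0.072 leaving out 1 rat), Ripk3 (-0.030 to 0.15) and Pycard (-0.12 to 0.086), and in M1CM against Pol1 Ripk3 (-0.086 to 0.27) and Pycard (-0.36 to 0.31, where the M1CM library of rat 8 or of rat 3 was left out). The replicate block, a term for the rat, raised the members called in M0CM against D10 to 1 (Nlrp3) and changed the calls given beside Casp1, Casp4 and Nlrp3, and no other call of a member. It raised the genes called to 4397 in Pol1 against D10 (2528 without it), 149 in M0CM against D10 (19 without it; DESeq2 60), 5335 in M1CM against Pol1 (3404 without it) and 3591 in Pol1 against M0CM (1905 without it). Leaving out 1 rat gave 1367 to 2011 genes in Pol1 against D10, 0 to 8 in M0CM against D10, 1677 to 3607 in M1CM against Pol1 (single M1CM libraries included) and 897 to 1374 in Pol1 against M0CM, lowest without rat 4 in each, and in M0CM against D10 also without rat 8. With library totals, Pol1 against D10 gave 1674 genes higher and 754 lower, against 1431 and 1097 with trimmed mean scaling. Of 220 recounts of the pathway lists, 40 moved by over 1.5 times, most of them in M1CM against Pol1. The cause of these changes was not tested. Depth limits Casp1 and Pycard in M0CM and D10, where 4 libraries together held 276 to 390 counts of each.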
